A study of Homo sapiens with 8 samples.

Results

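Keratins are the intermediate filament proteins of epithelial cells. A type I keratin pairs with a type II keratin to build the filament, and epithelia are told apart by which pairs they make: simple and luminal epithelium relies on KRT8, KRT18, KRT19 and KRT7, basal cells of stratified epithelium and of the breast on KRT5 and KRT14, and KRT16 and KRT17 are the type I keratins that wounded, inflamed or fast-growing skin switches on. In breast tumours KRT14 and KRT17 mark the basal class and KRT7 and KRT18 the luminal class. Here 3 basal or stress keratins (KRT14, KRT16 and KRT17) were set against 2 simple luminal keratins (KRT7 and KRT18), 5 of the 20 keratins among 9245 measured entries. The 5 were chosen by gene symbol with their log2 ratios in all 6 knockout clones already known, so those ratios are given below as a description and carry no test.

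The cells were SK-BR-3, an established breast cancer line of luminal origin with amplified ERBB2, from which the genes of the microRNAs mir-141 and mir-200c had been cut with TALENs, pairs of designed nucleases. The groups were mir-141 knockout (clone 23 in set 1, clone 10 in set 2), mir-200c knockout (clones 11 and 29), double knockout (clones 55 and 61) and wild type, with 1 library per group in each of 2 experimental sets. Every knockout library is thus a single clone, and clone and set cannot be told apart within a genotype. The deposited values are log2 ratios in which each clone is set against wild-type cells from its own set. A log2 ratio of 1 is 2-fold, and a ratio gives no expression level, so depth is unknown and the luminal identity of the line could not be checked by level. Loss of the microRNAs themselves was not analysed here. Below, 3 values in a row belong to the clones lacking mir-141, lacking mir-200c and lacking both, in that order.

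The sets did not resemble each other. Pearson correlations between clones across all genes lay between 0.50 and 0.71 within set 1 and between 0.51 and 0.70 within set 2, where clones share 1 wild type, but between −0.0022 and 0.0105 over the 9 pairs that cross the sets. Whether the rows of set 2 stand beside the right gene names was not tested, so set 2 is given as listed and set 1 is described first. These correlations are across genes, which are not independent replicates.

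Both microRNAs belong to the mir-200 family, which holds epithelial cells in their state by repressing inducers of the mesenchymal one. They act through the seed, bases 2 to 8, which pairs with sites in the 3' UTR of a target. Their mature sequences from RefSeq (GRCh38.p14, chromosome 12, plus strand) are shown because they are the products of the deleted genes, with the seed in capitals.
hsa-miR-141-3p: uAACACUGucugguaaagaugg
hsa-miR-200c-3p: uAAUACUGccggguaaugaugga
Counted from the 5' end, the seeds differ by the single substitution U4C, with the base of miR-200c-3p first.

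None of the 5 keratins has a perfect match to either seed in its longest annotated 3' UTR (GENCODE 29, GRCh38). These UTRs are short, with 255 bases in KRT17, 157 in KRT16, 156 in KRT14, 161 in KRT7 and 466 in KRT18, against a median of 1305 over 9207 genes. Of those genes, 20.9% hold the site CAGTGTT of miR-141-3p and 18.2% the site CAGTATT of miR-200c-3p. Among the other 15 measured keratins, sites stand in KRT8, KRT80 and KRT82, and they are shown, with the seed match in capitals, as the matches found in the family.
KRT8, for miR-200c-3p: tgtcaagttgggCAGTATTttataata
KRT80, for miR-200c-3p: ccagagacctgaCAGTATTagggagtg
KRT80, for miR-141-3p: aaatgtaattccCAGTGTTggaagtgg
KRT82, for miR-141-3p: cacattcccctcCAGTGTTccctcctt
A seed match is a description of the sequence, not a shown target. The longest 3' UTR of KRT8, 2190 bases, is longer than the whole transcript matched to its measured entry, 1882 bases. It thus comes from another isoform, and whether the measured transcript holds the site was not tested. KRT8, the type II partner of KRT18, had log2 ratios of −0.10, 0.16 and −0.19 in set 1, and KRT80 had 0.03, 0.67 and 0.65.

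In set 1 the basal keratins were above wild type in all 3 clones and highest in the clone lacking mir-200c alone. KRT17, which is on in basal breast epithelium and in stressed skin (chromosome 17, 41619441 to 41624842, minus strand, GENCODE 29 on GRCh38), had log2 ratios of 0.94 without mir-141, 2.20 without mir-200c and 2.07 without both, which are 1.92, 4.59 and 4.19 times wild type. In the clone lacking mir-200c 11 of 9245 entries were higher, in the double knockout 10 and in the clone lacking mir-141 65. KRT17 was thus far from wild type in both clones that lack mir-200c and less far in the clone that keeps it.

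KRT16, the wound-response partner of KRT6 (chromosome 17, 41609778 to 41615899, minus strand), had log2 ratios of 0.41, 1.74 and 0.97. It was 3.34 times wild type where mir-200c alone was lost and 1.96 times where both were, so the clones without mir-200c differed more from each other in KRT16 than in KRT17. KRT14, the type I keratin of basal cells that pairs with KRT5 (chromosome 17, 41582279 to 41586921, minus strand), had 0.52, 1.00 and 0.95. It lay at the 96.8th, 98.3rd and 98.2nd percentile of all genes in the 3 clones. The clones lacking mir-200c were nearly equal in KRT14.

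The luminal keratins stayed near wild type in the same clones. KRT7, a type II keratin of simple and ductal epithelium (chromosome 12, 52232520 to 52252186, plus strand), had −0.03, 0.08 and −0.01 and stood at the 46.0th, 61.5th and 51.9th percentile. KRT18, the type I partner of KRT8 (chromosome 12, 52948871 to 52952901, plus strand), had 0.16, 0.24 and 0.21, at the 78.8th, 76.9th and 77.9th percentile. No luminal ratio of set 1 reached the lowest basal one of the same clone. In bulk RNA, more cells that make a keratin and more of its RNA per cell cannot be told apart.

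**Figure D1:**
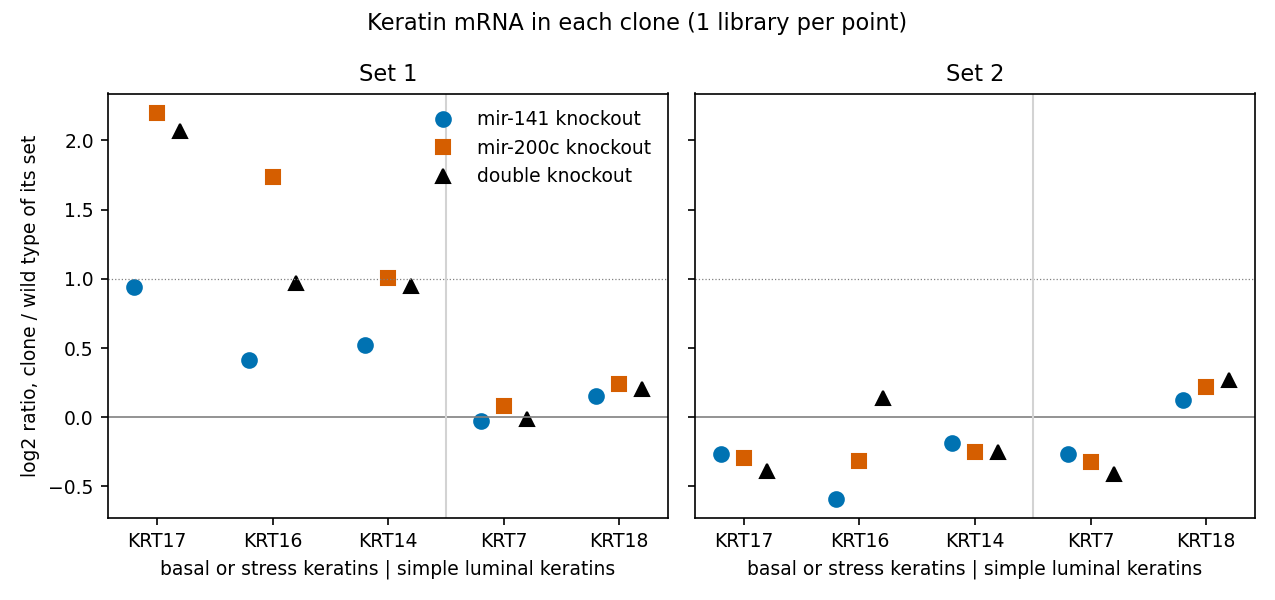
Log2 ratio of each clone to wild-type cells of the same set (y axis) for the 3 basal or stress keratins and the 2 luminal ones (x axis), 1 library per point, set 1 left and set 2 right; the dotted line marks a log2 ratio of 1. In set 1 the basal keratins run from 0.41 to 2.20 and the luminal ones from −0.03 to 0.24, while in set 2 no keratin lies beyond −0.59 or 0.27.

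Counted against a log2 ratio of 1, 0 of the 5 keratins were above it in the mir-141 knockout of set 1, where 0.584% of all entries were, 3 of 5 in the mir-200c knockout (1.7% of all entries) and 1 of 5 in the double knockout (1.53%). Since these ratios chose the 5 genes, nothing is read from the shares. KRT14 was just inside the threshold in the mir-200c knockout at 1.0028, and KRT16 at 0.973 and KRT14 at 0.9476 were just outside in the double knockout. The mean of the basal keratins was 0.63 ± 0.28 without mir-141, 1.65 ± 0.60 without mir-200c and 1.33 ± 0.64 without both (SD over 3 genes of 1 library), and that of the luminal ones was 0.06 ± 0.13, 0.16 ± 0.11 and 0.10 ± 0.16 (SD over 2 genes). Basal minus luminal was therefore 0.56, 1.48 and 1.23, or 1.48-, 2.80- and 2.35-fold. The other measured keratins were set in wider classes. The stratified group took in KRT10 and KRT13, and the simple group KRT23 and KRT80. These groups did not show this contrast. The other 5 stratified keratins averaged 0.11 ± 0.32, 0.32 ± 0.41 and 0.25 ± 0.46 (SD over 5 genes). The other 4 simple keratins averaged 0.12 ± 0.31, 0.29 ± 0.26 and 0.31 ± 0.62 (SD over 4 genes). The difference was −0.01, 0.03 and −0.06. Both groups pooled with the 5 (8 stratified, 6 simple) gave 0.20, 0.57 and 0.42, which still holds the values that chose the 5. Both of these sets were formed after seeing the data.

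**Figure D2:**
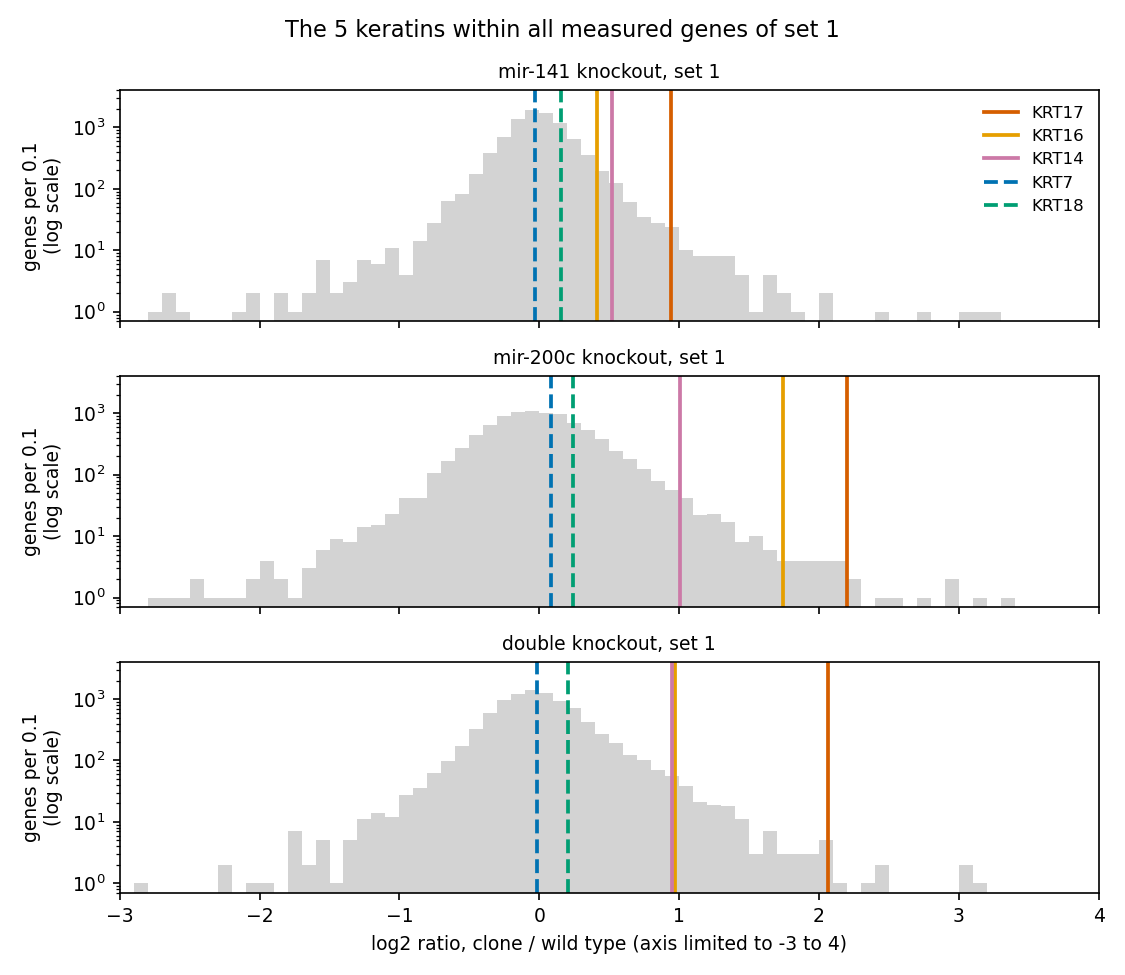
Number of entries per 0.1 of log2 ratio (grey, log scale) in the 3 clones of set 1, with the basal keratins as solid and the luminal keratins as dashed lines. In the mir-200c knockout KRT17 (2.20) and KRT16 (1.74) stand in the sparse right tail and KRT7 (0.08) and KRT18 (0.24) in the bulk.

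Clones of set 1 were also set against each other. Each genotype is 1 clone here, so loss of a microRNA and clone cannot be told apart. The double knockout minus the mir-141 knockout, which differ in mir-200c, gave 1.12 for KRT17, 0.56 for KRT16 and 0.43 for KRT14, against 0.01 for KRT7 and 0.05 for KRT18. In set 1 KRT17 was 1 of 47 entries above 1 in that difference (0.508% of all). The same difference in set 2 was −0.12 for KRT17, 0.73 for KRT16, −0.07 for KRT14, −0.15 for KRT7 and 0.15 for KRT18. KRT17, KRT14 and KRT7 thus had the other sign there. The double knockout minus the mir-200c knockout, which differ in mir-141, gave −0.13 for KRT17, −0.77 for KRT16, −0.06 for KRT14, −0.10 for KRT7 and −0.04 for KRT18 in set 1. With mir-200c present, the mir-141 knockout had 0.94, 0.41 and 0.52 for KRT17, KRT16 and KRT14, all above 0, whereas the values in clones already lacking mir-200c were near or below 0. The order mir-200c knockout, double knockout, mir-141 knockout, wild type from high to low held for KRT17, KRT16, KRT14 and KRT18. It held for 7.95% of all entries, the other keratins KRT13, KRT15 and KRT80 among them. Since these ratios chose the 5 genes, nothing is read from this order.

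In set 2, as listed, the basal mean was not above the luminal one in any clone. KRT17 had log2 ratios of −0.27, −0.29 and −0.39. KRT16 had −0.59, −0.31 and 0.14, and KRT14 had −0.18, −0.25 and −0.25. All but 1 of these basal values were thus below 0. For the luminal pair, KRT7 had −0.27, −0.33 and −0.41 and KRT18 had 0.12, 0.22 and 0.27. KRT18 was above 0 in all 6 clones of the study, while KRT17 and KRT14 were above 0 in all 3 clones of set 1 and below 0 in all 3 of set 2. Both patterns were common. All 6 clones stood on 1 side of 0 in 1576 of 9245 entries, and the sets stood on opposite sides in 1417. Basal minus luminal was −0.27, −0.23 and −0.10, from basal means of −0.35, −0.29 and −0.17 and luminal means of −0.07, −0.05 and −0.07. Over the other stratified and simple keratins alone the difference was 0.24, 0.25 and 0.50 there, and pooled with the 5 it was 0.05, 0.08 and 0.28, both of the other sign. KRT16 in the double knockout was 0.46 above the clone lacking mir-200c. None of the 5 keratins lay beyond 1 in either direction there, where 2.48%, 1.77% and 3.34% of all entries did. KRT17 and KRT7 had almost the same profile in set 2, with a Euclidean distance of 0.0406 over the 3 ratios, and were 3.12 apart in set 1.

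Over both sets, limma fits with the set built in called 0 of 9245 entries at a Benjamini-Hochberg adjusted p under 0.05 (0% of entries) for the mir-141 knockout, the mir-200c knockout, the double knockout and the loss of either microRNA across both backgrounds. The smallest adjusted p was 0.998, 0.793 and 0.740 for the 3 knockouts, 0.541 for loss of mir-200c and 0.901 for loss of mir-141, and 248, 499, 581, 821 and 476 entries had an unadjusted p under 0.05. These p-values measure the spread between the sets, in which clone and set are mixed. A call needs the sets to agree, but correlations across the sets were only −0.0022 to 0.0105. Whether set 2 rows stand beside the right gene names was not tested, and if they do not, the fits cannot find a shared change. The 0 calls and the adjusted p-values here and below therefore do not show that genes were unchanged. For loss of either microRNA they also take in how far the changes of the 2 losses fail to add up. As a description, fitted log2 changes for loss of mir-200c were 0.73 ± 0.39 for KRT17, 0.68 ± 0.28 for KRT16, 0.28 ± 0.20 for KRT14, −0.09 ± 0.10 for KRT7 and 0.16 ± 0.09 for KRT18 (SE, 4 clones without against 2 clones with mir-200c and 2 wild types). For loss of mir-141 they were 0.11 ± 0.39, −0.12 ± 0.28, 0.07 ± 0.20, −0.12 ± 0.10 and 0.07 ± 0.09. Single libraries moved the values for loss of mir-200c. Without the wild type of set 1, KRT17 had 0.29, KRT16 0.43 and KRT14 0.05, and without the mir-200c clone of set 1 they had 0.43, 0.40 and 0.14. Without the wild type of set 2, KRT14 had 0.45, and KRT7 ran from −0.15 to −0.02 as libraries were left out.

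The other 15 measured keratins were taken from lists of the whole family. Limma called 0 of them in any of the 5 comparisons, with the limit of these fits given above. In set 1 their median was 0.11, 0.12 and 0.80, against −0.01, −0.02 and −0.03 over all entries. Above a log2 ratio of 1 were 0, 0 and 2 of the 15, where 0.584%, 1.7% and 1.53% of all entries were, and below −1 were 0, 0 and 0, where 0.562%, 1.06% and 0.746% of all entries were below −1. The other keratins of stratified epithelium were mixed. KRT15, a basal keratin of hair follicle and ducts, had 0.65, 0.83 and 0.81 in set 1. In the clones of set 2 it had 0.31, 0.52 and 1.02. Like KRT18, it was above 0 in all 6 clones, as 1 of the 1576 entries with a common sign. Its fitted change was 0.92 ± 0.19 in the double knockout (SE, n = 2 clones, limma adjusted p = 0.740) and 0.56 ± 0.13 for loss of mir-200c (adjusted p = 0.541), neither past the threshold.

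KRT13, a keratin of moist stratified epithelium, had 0.11, 0.55 and 0.39 in set 1, in the same order of clones as KRT17. KRT6B, a type II partner of KRT16 and KRT17, had −0.18, 0.25 and 0.43, KRT4 had −0.08, 0.23 and 0.00, and KRT10, the keratin of differentiating skin, had 0.06, −0.25 and −0.40. Among simple keratins, KRT19 had −0.03, 0.22 and −0.24. KRT23 had 0.58, 0.12 and 1.01, lowest in the clone where KRT17 was highest. KRT5 and KRT6A, partners of KRT14 and KRT16, were not among the 20 measured keratins.

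The type II hair keratins followed another order of clones. All 6 measured (KRT81 to KRT86) lay between 0.80 and 1.35 in the double knockout of set 1, with a median of 0.90, and 5 of the 6 were below 0 in the mir-200c knockout, with a median of −0.23. KRT81 had 0.27, −0.83 and 0.80, and KRT82, the highest, had 0.56, −0.02 and 1.35. In set 2 this order was not seen: the 6 had medians of −0.04, −0.08 and 0.00 and ran from −0.34 (KRT86) to 0.16 (KRT82) in the double knockout. KRT82 was not called for the double knockout (0.75 ± 0.30, SE, n = 2 clones, limma adjusted p = 0.740). KRT81 and KRT86 share 632 fragments of 70 bases, 34.0% of those of KRT81, so their values are uncertain and not independent.

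**Figure D3:**
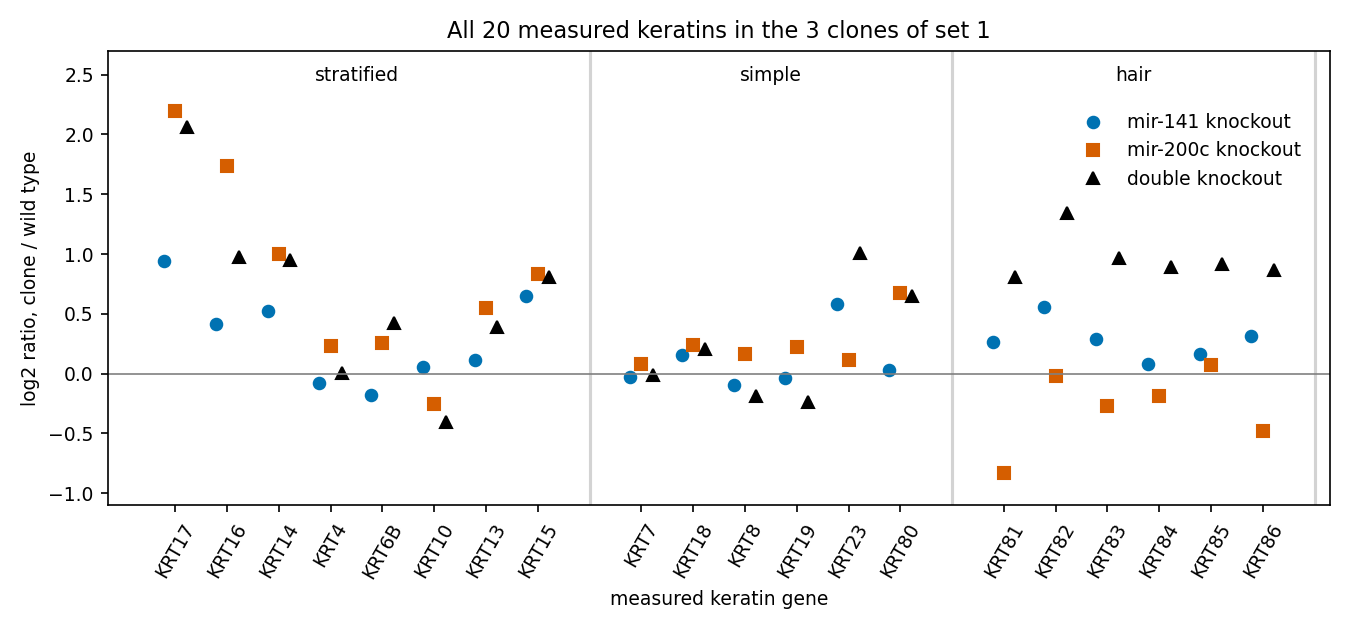
Log2 ratio to wild type (y axis) of all 20 measured keratins (x axis) in the 3 clones of set 1, grouped as stratified, simple and hair keratins. KRT17 and KRT16 are highest in the mir-200c knockout, at 2.20 and 1.74, and the 6 hair keratins lie between 0.80 and 1.35 in the double knockout alone.

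Reads of these genes can be shared with close copies. Of the 70-base fragments of each transcript (the shortest RNA fragments taken into the libraries, per the labels), 6.15% for KRT17, 10.5% for KRT16, 11.4% for KRT14, 9.31% for KRT18 and 0% for KRT7 occur in transcripts of another gene. KRT14 shared 92 of its 1593 fragments with KRT16, and KRT16 and KRT17 share most with the pseudogenes KRT16P3 and KRT17P3. Of the other keratins, KRT6B shared 37.4% of its fragments, most with KRT6C, and KRT8 21.1%, most with KRT8P3. The values of KRT6B and KRT8 are thus uncertain too. The sources used here do not give how such reads were counted. The annotated bounds of KRT18 and KRT8, on opposite strands, overlap, as do those of KRT7 and KRT86. The part of shared reads in the ratios was not tested.

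KRT14, KRT16 and KRT17 lie side by side on chromosome 17, with no other measured gene between them. Genes just beyond KRT17 were near wild type. Next to KRT17 came EIF1, a translation initiation factor, with 0.01, 0.16 and 0.02 in set 1, JUP, the desmosomal plakoglobin, with 0.04, −0.02 and 0.24, and LEPREL4, with −0.06, 0.22 and 0.25. On the other side lay KRT19, KRT15 and KRT13, with the values given above. Over the 20 nearest measured genes outside the keratins and keratin-associated proteins (10 on each side) the median was −0.01, −0.04 and −0.01, and 0 of the 20 were above KRT17 or KRT14 in any of these clones, while 1 was above KRT16 in the clone lacking mir-141. In set 2, 17 to 18 of the 20 were above KRT17 in each clone. The highest of the 20 where mir-200c alone was lost was TNS4, at 0.70. Beyond this count, and chosen after their values were seen, the keratin-associated KRTAP3-1 within the cluster had 1.05, 0.64 and 0.80, above KRT17 in the first clone. Farther along the chromosome PTRF, a caveolar coat protein, had 0.90, 1.22 and 1.88. Near it STAT5A, a transcription factor of prolactin signalling, had −0.48, 1.32 and −0.08.

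On chromosome 12, the 20 nearest such genes around KRT7 and KRT18 had medians of 0.06, 0.11 and 0.09 in set 1. Beside KRT7 lay NR4A1, an early-response nuclear receptor, with 0.26, −0.75 and 0.13, C12orf44 with −0.02, 0.22 and 0.03, and the keratins KRT80 and KRT86. Beside KRT18 and KRT8 lay EIF4B, a translation factor, with −0.22, 0.19 and −0.09, TENC1, a focal adhesion tensin, with 0.77, 0.25 and 0.97, and SPRYD3 with 0.21, 0.34 and 0.21. In set 1 KRT7 was below 15, 11 and 12 of the 20 and KRT18 below 7, 4 and 7, so both sat among their neighbours. In set 2, as listed, KRT7 was below 19 of the 20 in each clone, and KRT18 below 10, 5 and 5.

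**Figure D4:**
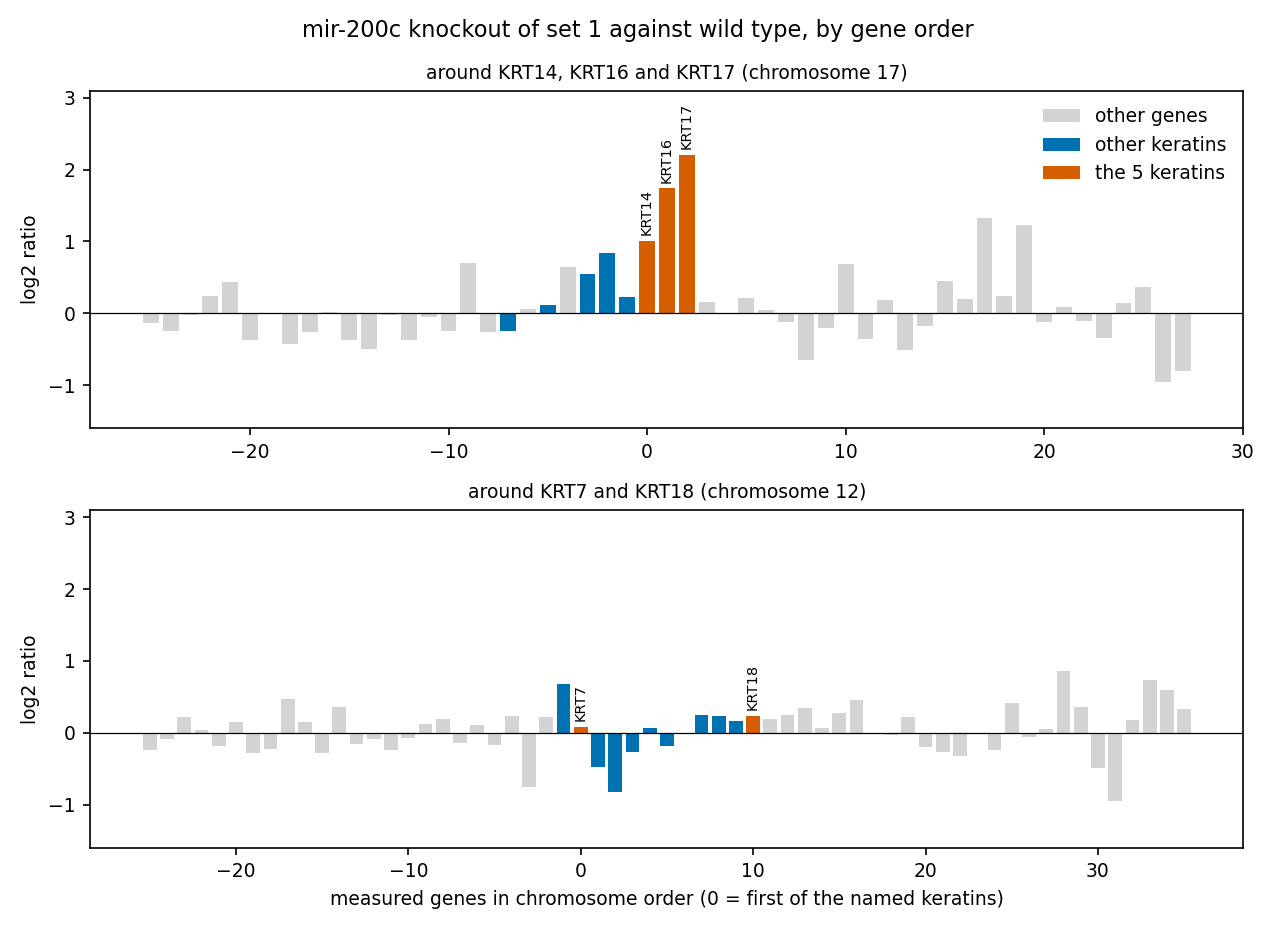
Log2 ratio of the mir-200c knockout of set 1 to wild type (y axis) for measured genes in chromosome order (x axis, 0 is the first of the named keratins), around the basal keratins on chromosome 17 (top) and the luminal keratins on chromosome 12 (bottom). KRT14, KRT16 and KRT17 (1.00, 1.74 and 2.20) stand above neighbours whose median is −0.04, while KRT7 and KRT18 do not stand out.

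Genes that work with keratins were read from lists. Limma called 0 members of any list below in any comparison, with the limit of these fits given above. Of 21 desmosome and linker genes, which anchor keratin filaments at cell junctions, 16 were measured, with medians of −0.02, 0.00 and 0.04 in set 1. In them, 0 lay above 1 and 0, 1 and 1 below −1, where 0.562%, 1.06% and 0.746% of all entries were. That gene was PKP1, plakophilin 1 of stratified epithelium, with −0.79, −1.53 and −1.30 in set 1. In the clones of set 2 it had −0.38, −0.47 and −0.54. It was below 0 in all 6 clones, as 1 of the 1576 entries with a common sign. Its fitted change for loss of mir-200c was −0.67 ± 0.20 (SE, limma adjusted p = 0.541).

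Hemidesmosome and basal lamina anchors, which tie basal cells to the matrix, were measured for 4 of 8 genes. Their medians were 0.15, 0.36 and 0.42, and LAMA3, a laminin chain of basal lamina, had 0.09, 0.59 and 1.04 in set 1, next to 0.13, 0.08 and 0.05 in the clones of set 2. The other intermediate filament genes (7 of 18 measured) had medians of 0.03, 0.21 and 0.09 with 0 members beyond 1. Among them the nuclear lamin LMNB1 had the lowest value in the mir-200c and double knockout, −0.71 and −0.67.

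Keratinocyte stress and cornified envelope genes, which in skin accompany KRT16 and KRT17, split within the list. Of 35 genes 8 were measured, with medians of 0.19, −0.47 and 0.15 in set 1. Above 1 lay 1, 1 and 2 of them (0.584%, 1.7% and 1.53% of all entries) and below −1 lay 1, 1 and 2 (0.562%, 1.06% and 0.746%). IVL, the envelope precursor involucrin, had 0.70, 1.30 and 1.37, highest in both clones without mir-200c. S100A7, psoriasin, had 1.75, −0.43 and 2.05 and so was low in the clone where KRT17 was highest. LY6D, a surface protein of keratinocytes, had −1.27, −1.31 and −1.55, and SFN, the 14-3-3 sigma of epithelium, had −0.47, 0.32 and −1.14. In set 2, 0 of the 8 lay beyond 1, and LY6D had 0.31, 0.24 and 0.25, of the opposite sign in all 3 clones. IVL had 0.26, 0.20 and 0.17 and S100A7 0.29, 0.05 and 0.26 there.

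Basal breast and myoepithelial markers were measured for 7 of 26, with medians of 0.31, 0.68 and 0.45 against −0.01, −0.02 and −0.03 over all entries. Above 1 were 1, 3 and 2 of them, where 0.584%, 1.7% and 1.53% of all entries were, and below −1 were 0, 0 and 1, where 0.562%, 1.06% and 0.746% were. MYL9, a myosin light chain of contractile cells, had 0.79, 3.20 and 3.01, the same order of clones as KRT17. CX3CL1, a membrane-bound chemokine, had 0.31, 1.49 and 0.82, the order of KRT16. By contrast TAGLN, an actin-binding protein of smooth muscle, had −0.22, 2.08 and −0.41, CAV1, caveolin, had 1.07, 0.68 and 2.00, and CRYAB, a small heat shock protein, had −0.70, −0.40 and −1.58. In set 2, 0 of the 7 lay beyond 1, and the medians were 0.00, −0.27 and −0.19. MYL9 was the highest of the list there, at 0.20, 0.22 and 0.26. EGFR was the lowest, at −0.54, −0.55 and −0.55.

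Luminal factors and products were measured for 25 of 28, with medians of −0.01, −0.05 and 0.07 in set 1, 0 above 1, and 0, 1 and 0 below −1 (0.562%, 1.06% and 0.746% of all entries). The gene below was TFF1, an oestrogen-induced secreted peptide, with −0.18, −2.17 and −0.55 in set 1, next to −0.13, −0.02 and −0.28 in the clones of set 2. The highest of the list were GATA3, a luminal transcription factor, at 0.54 in the first clone, and KDM5B, a histone demethylase, at 0.70 and 0.69 in the others. The luminal list thus lay near all entries while basal keratins were high.

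Regulators of keratin genes and filaments were measured for 12 of 15, with medians of −0.03, −0.17 and −0.01 and 0 beyond 1 in set 1. KLF5, a factor of basal epithelium, was lowest in all 3 clones of set 1 at −0.71, −0.47 and −0.73. In set 2 TFAP2C, an AP-2 factor of luminal cells and skin, was lowest at −0.98, −0.95 and −1.41, and KEAP1, an adaptor of a ubiquitin ligase, reached 1.06 in the clone lacking mir-141. Genes for keratin ubiquitylation and folding were all measured (7 of 7), with medians of −0.13, 0.23 and −0.00. Of these TRIM21, a ubiquitin ligase also known from the interferon response, had 0.34, 1.03 and 0.75 in set 1. In the clones of set 2 it had 0.66, 0.45 and 0.68. It was above 0 in all 6 clones, as 1 of the 1576 entries with a common sign. Its fitted change was 0.48 ± 0.17 for loss of mir-200c (SE, limma adjusted p = 0.541).

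Markers of other cell types give ratios without levels, so whether their defining genes were at 0 in these libraries was not analysed here. Of 12 fibroblast markers 3 were measured, with medians of −0.11, 0.69 and −0.09, and with COL5A1 at −0.29, 1.29 and −0.09 and COL5A2 at 0.91, 0.69 and 1.28 in set 1. Of 10 blood cell markers 3 were measured, with medians of −0.01, −0.48 and −0.44 and with LCP1 at −0.13, 1.05 and −0.44. Of 6 endothelial markers only CDH5 was measured, at 0.10, 0.73 and 1.34. In the clone where KRT17 and KRT16 were highest, COL5A1, COL5A2, LCP1 and CDH5 were above 0. In the same clone COL1A1 (−0.41), CORO1A (−0.54) and CD68 (−0.48) were below 0. The part of any of these markers in the keratin ratios was not tested.

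**Figure D5:**
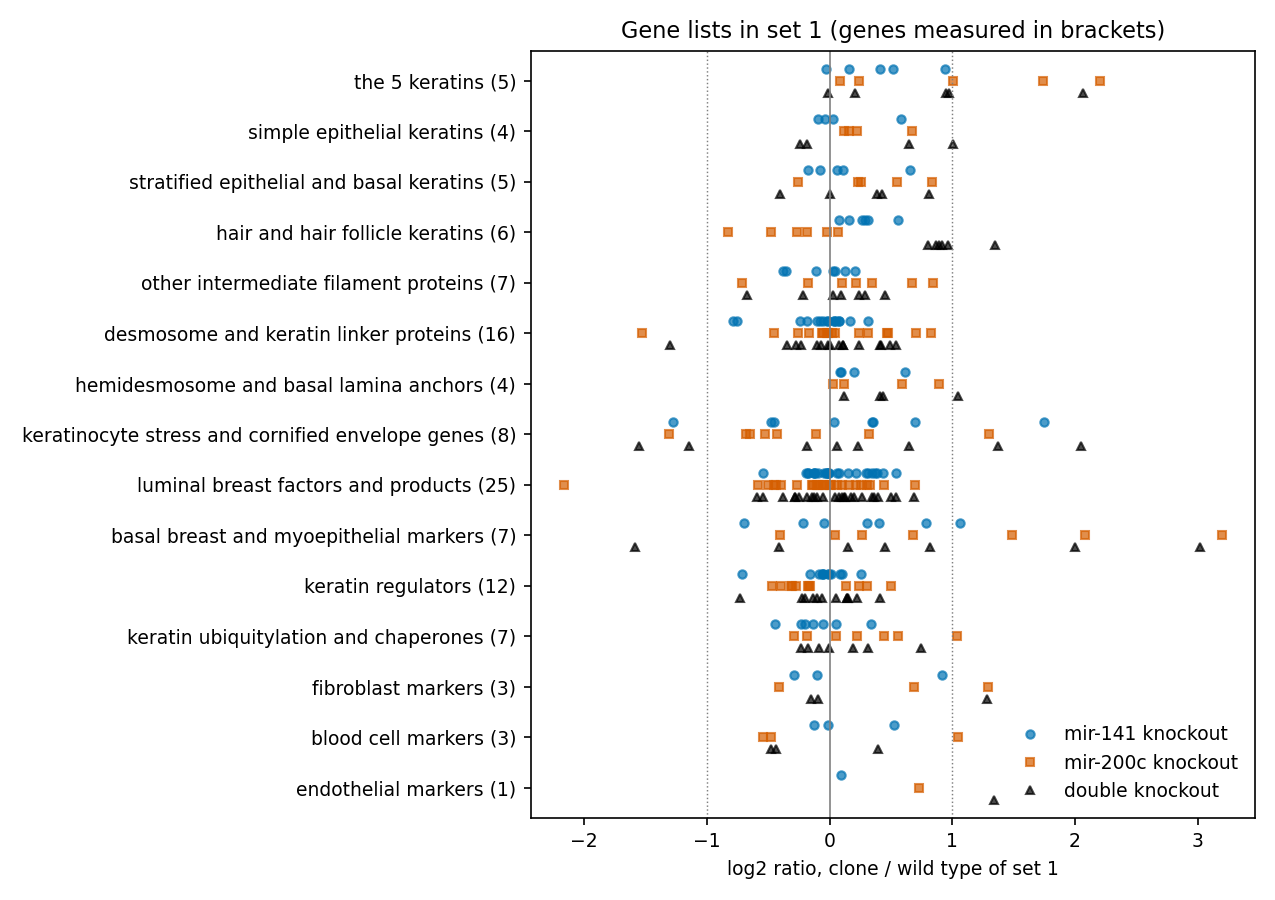
Log2 ratio to the wild type of set 1 (x axis) for every measured gene of each list (rows, number measured in brackets) in the 3 clones; dotted lines mark log2 ratios of −1 and 1. Basal breast and myoepithelial markers reach 3.20 in the mir-200c knockout, the luminal list is centred at −0.05 there, and the hair keratins gather near 0.90 in the double knockout.

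The genes nearest to each basal keratin over the 3 ratios of set 1 were named by Euclidean distance, which is a description over 3 values that share 1 wild type. For KRT17 they were PAPLN (distance 0.437), SYK (0.577) and ZG16 (0.609). PAPLN, a secreted proteoglycan-like protein, had 0.94, 2.09 and 1.64, and SYK, a tyrosine kinase, had 1.30, 2.25 and 1.62. For KRT16 they were RARRES3 (0.201), FAM47E-STBD1 (0.270) and CX3CL1 (0.313), and RARRES3, a retinoid-induced phospholipase, had 0.39, 1.78 and 0.78. For KRT14 they were the chemokine gene CCL2 (0.0620), with 0.57, 0.97 and 0.95, CDC42EP3 (0.0874) and GGT7 (0.0932). KRT16 and KRT14 were 0.744 apart, KRT17 and KRT16 1.30, and KRT7 and KRT18 0.328. In set 2 none of these 9 genes but SYK and CDC42EP3 lay beyond 0.5, with SYK at −0.63, −0.71 and −0.31 and CDC42EP3 at 0.77, 0.12 and 1.45.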

How the data were processed

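The 5 keratins and the gene lists were chosen with earlier results of these data known. The values are log2 ratios that the authors deposited, 6 columns for 9245 RefSeq entries, each setting a clone against its set's wild-type cells, per the file headers. TopHat2 and GRCh37.p10 were used per the submitters' processing notes; counting, scaling and filtering are not given in the sources used here. There were 0 columns of samples from other series.

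The design allowed for ratios: each wild type was entered as 0, which builds in the set as a block, since the labels name a shared set. limma 3.58.1 (R 4.3.3) was fitted to all genes: by group (3 residual degrees of freedom), and with 1 term for each lost microRNA (4). The fits were also run on simulated data with independent noise and the same changes in both sets. For loss of mir-200c, 82% of 100 entries changed by a log2 of 1 were called. Of 100 changed by 2, 98% were, with 11 false calls. The sets did not agree in the real data, so these shares do not carry over.

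Positions, 3' UTRs and transcripts came from GENCODE 29 (GRCh38), matching 9226 entries, 9011 by accession. Of the promoter table, 0 of the 5 keratins matched. Named genes were the keratins, list members beyond a log2 ratio of 1 in set 1 (at most 6 a list), the 3 nearest genes by ratio and the 3 measured genes on each side. Genes at the extremes of a list or singled out otherwise were chosen after their values were seen. Alternatives were median centring, no block, leaving out each library, and other members or thresholds.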

Additional observations from a re-analysis of the deposited data

Results flagged for a closer look

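In 4 of the 20 measured keratins all 3 clones of set 1 stood on one side of 0 and all 3 of set 2 on the other: KRT17, KRT14, KRT23 and KRT13. The same holds for 15.3% of all entries. All 6 clones stood on the same side in 1576 of 9245 entries, with KRT18, KRT15, PKP1 and TRIM21 among them. The mean log2 ratio of set 1 minus that of set 2 was 2.05 for KRT17 (1.74 against −0.32), 1.05 for KRT14 (0.82 against −0.23), 0.93 for KRT23 (0.57 against −0.36) and 0.38 for KRT13 (0.35 against −0.03). The difference between the sets was not tested, and clone, set and wild type cannot be told apart in it.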

How the results depend on the processing

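The counts of 0 called entries held under median centring and with no replicate block (0 entries in each of the 5 comparisons, against 0 with it). Leaving out each library in turn gave 0 to 1 called entries for the mir-141 knockout, 0 to 1 for the mir-200c knockout, 0 to 2 for the double knockout and 0 for either loss; those called were WDR20, FAM86B2, SLC26A11 and HIST1H2BH, none a keratin. An arm left with 1 library was assumed to vary like the others. Without the wild type of set 2, 1, 1 and 2 were called for the 3 knockouts, and without either mir-200c clone 1 for the mir-200c knockout. The fitted change of each of the 5 keratins for loss of mir-200c kept its sign under all 10 alternatives, with KRT17 between 0.29 and 1.05 and KRT14 between 0.05 and 0.45 as libraries were left out. These alternatives reuse the ratios that chose the 5, so the kept sign is a description and no support. At a log2 ratio of 0.5 in place of 1, 2 of the 5 keratins were beyond it in the mir-141 knockout and 3 in the double knockout of set 1, and 1 in the mir-141 knockout of set 2; median centring put 2 beyond 1 in the double knockout of set 1. Basal minus luminal in set 1 ran from −0.0065 to 0.67, 0.029 to 1.81 and −0.0615 to 1.42 over 8 alternatives for loss of mir-141, of mir-200c and of both. The lowest values came from the stratified and simple keratins other than the 5, a choice made after seeing the data. These are wider classes than basal and luminal, and between them the contrast of the 5 did not hold. In set 2 basal minus luminal changed sign in 2, 3 and 4 of 8. Seed matches were absent from the 5 keratins in all annotated isoforms too. Depth is unknown, so no limit of detection was set.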
